A study of Arabidopsis thaliana with 2 samples.

Results

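Hormone signalling genes of Arabidopsis thaliana were followed in dark-grown seedlings with and without a short red light treatment. The 6 genes are the gibberellin receptors GID1A (AT3G05120), GID1B (AT3G63010) and GID1C (AT5G27320), the ethylene transcription factor EIN3 (AT3G20770), and the type-A response regulators RR16 (AT2G40670, also called ARR16) and ARR15 (AT1G74890) of the cytokinin pathway. The choice by name was made with earlier results of these data known and with no filter on signal. It was made out of 13356 genes of the array's annotation that have a probe set naming them alone. Each of the 6 has exactly 1 such probe set: 259302_at for GID1A, 251200_at for GID1B, 246782_at for GID1C, 257981_at for EIN3, 266078_at for RR16 and 262212_at for ARR15. None of these IDs carries the suffix of probe sets that can cross-hybridize with related genes.

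The red light sample was whole seedlings of Landsberg erecta, an accession that carries a mutation in the receptor kinase gene ERECTA, grown for 7 days in darkness at 23 °C and then given 1 h of red light, with a transmission maximum at 630 nm and about 10 µmol per square metre and second. The dark sample has the same growth protocol in the labels and stayed in darkness for that hour. The submitters' texts disagree on how much sucrose the medium held, so that content is not known here for either sample. In both samples the sown seeds had been kept cold for 2 days and had received 2 h of white light at the start, so neither sample was wholly without light history. The labels name no further mutation, no transgene and no hormone treatment for either sample. Each sample pooled 5 seedlings and was hybridised to 1 Affymetrix array, so there is no replicate, no error across samples and no test, and p-values are not given. The seedlings were taken whole, and in such samples fewer cells of a type and less RNA per cell cannot be told apart.

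Gibberellin enters the nucleus and binds a GID1 protein, which then takes hold of a DELLA repressor. An F-box protein such as SLY1 marks the captured DELLA for destruction, which frees growth in the elongating dark-grown stem. Ethylene signalling acts by keeping the EIN3 protein from being degraded, and EIN3 then switches on genes for the closed apical hook and thickened stem of seedlings in the dark. Cytokinin signalling passes a phosphate to type-B response regulators, which switch on genes that include the type-A regulators. Because they are switched on in this way, type-A transcripts are widely used as a readout of the cytokinin response. The type-A proteins themselves lack a DNA-binding domain and damp that response. The array reads transcripts and not the proteins on which much of this control acts.

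The comparison asks whether transcripts of these genes differ after 1 h of red light. The values are MAS5 probe set intensities, called signals here, on a scale common to both arrays. A gene was taken as measured if its mean log2 signal was at or above the 40th percentile of non-control probe sets, a signal of 102. EIN3, the 3 receptors and RR16 were measured and ARR15 was not. Signals of different probe sets depend on the probes as well as on the RNA, so the 6 genes are not ranked by amount.

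None of the 5 measured genes reached a 2-fold difference in either direction with the signals as deposited. Among all 7282 measured genes, 7.26% were past 2-fold, 4.82% in the higher direction and 2.44% in the lower one. The receptors and EIN3 had ratios below 0 on the log2 scale, and RR16 had a ratio above 0. The median log2 ratio of the 5 genes was -0.22, against 0.00 over all measured genes, of which 49.9% lay below 0.

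**Figure D1:**
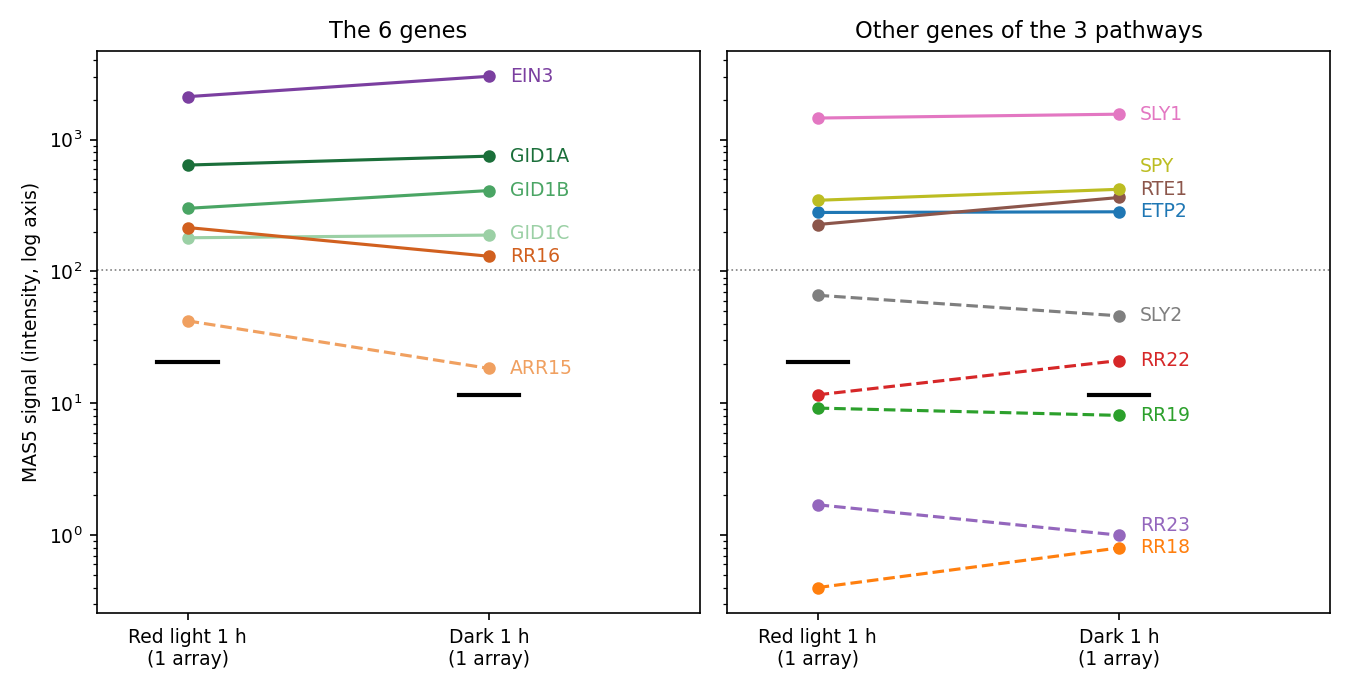
Signal (MAS5 intensity, log axis) after red light (left) and in darkness (right), 1 array each, for the 6 genes (first panel) and for other genes of the 3 pathways (second panel). Each line joins the 2 signals of a gene, dashed where the gene did not count as measured; the dotted line is the signal of 102 for measured genes, and the black bars are the highest background probe set of each array, 20.5 under red light and 11.5 in darkness. EIN3 and the 3 receptors lie lower on the red light array, and RR16 and ARR15 lie higher there.

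GID1A had a signal of 641.5 under red light and 749.6 in the dark. The red light signal was thus 1.17-fold lower, a log2 ratio of -0.22. Of all measured genes, 29.8% had a lower ratio. Among the 1456 genes of similar brightness, those in the fourth of 5 equal groups by mean signal, 59.9% had a ratio at least as far from 0.

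GID1B showed the widest gap among the receptors, with a signal of 301.2 under red light and 411.0 in the dark. That is 1.36-fold lower after red light, a log2 ratio of -0.45, and 14.6% of measured genes had a lower ratio. In its brightness group 34.5% of genes had a ratio at least as far from 0. GID1C had nearly the same signal on both arrays, 180.2 under red light and 188.8 in the dark. Its log2 ratio was -0.07, and 90.3% of the genes in its brightness group had a ratio at least as far from 0.

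In log2 ratio, GID1A lay 0.22 above GID1B and 0.16 below GID1C, and GID1B lay 0.38 below GID1C. For comparison, 37 pairs of measured probe sets that name the same gene differed in log2 ratio by a median of 0.27. Only the gap between GID1B and GID1C was wider than that median, which measures the spread between probe sets and not between seedlings. Many of the same-gene pairs exceed their own median too, so passing it does not set a gap apart. Summed over the receptors, the signal was 1122.9 under red light and 1349.4 in the dark, a log2 ratio of -0.27. GID1A, with the brightest probe set of the receptors, weighs most in that sum, which is not a total amount of receptor transcript. The sign for the receptors depends on how the arrays are scaled: with centring on the 18 hybridization controls GID1A stood at 0.08 and GID1C at 0.23, while GID1B stayed below 0 at -0.15.

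EIN3 had a bright probe set, with a signal of 2119.1 under red light and 3023.2 in the dark. The red light signal was above that of 93.2% of the non-control probe sets of its array, and the dark signal above that of 95.9%. The signal was 1.43-fold lower after red light, a log2 ratio of -0.51, and 11.5% of measured genes had a lower ratio. Bright genes varied less between the arrays than dim ones. Across the brightest group of 1457 genes, to which EIN3 belongs, log2 ratios had an SD of 0.45, and across the dimmest 1457 the SD was 0.70. In the brightest group 19.4% of genes had a ratio at least as far from 0 as EIN3. The median of that group was itself -0.10, and after loess correction of this trend EIN3 had a log2 ratio of -0.41. Its ratio also stayed below 0 with quantile normalization, at -0.46, and with centring on the hybridization controls, at -0.21.

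RR16 had a ratio of the opposite sign, with a signal of 215.5 under red light and 130.5 in the dark. That is 1.65-fold higher after red light, a log2 ratio of 0.72, and 9.10% of measured genes had a higher ratio. It was the only measured gene of the 6 that was at least 1.5-fold apart. A difference of that size was common, as 21.7% of all measured genes were past 1.5-fold, 12.7% higher and 8.95% lower. RR16 lies in the dimmest group of measured genes, where 21.0% had a ratio at least as far from 0. Its log2 ratio was 0.63 with loess correction and with quantile normalization, and with centring on the hybridization controls it was 1.02, just over 2-fold.

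ARR15 had a ratio of the same sign as RR16, but from signals near background, of 42.2 under red light and 18.4 in the dark. The highest of 27 probe sets for bacterial transcripts, which served as background, reached 20.5 under red light and 11.5 in darkness. ARR15 was thus at 2.06 times the highest background under red light and at 1.60 times that in the dark. The signals give a 2.29-fold higher value after red light, a log2 ratio of 1.20, which became 0.67 when a pseudocount of 22.1 was added to both signals. Ratios of that size are frequent among dim genes. Of 783 genes within 0.5 of the mean log2 signal of ARR15, 21.5% were past 2-fold, and 13.4% were past it in the direction of ARR15. With no filter on dim probe sets, 23.2% of all genes were past 2-fold, 13.6% higher and 9.57% lower.

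RR16 and ARR15 were the only type-A regulators of the 10 on the cytokinin list with a probe set naming them alone. The log2 ratio of RR16 lay 0.47 below that of ARR15 with the signals as deposited. With the pseudocount the 2 ratios were 0.64 for RR16 and 0.67 for ARR15. The log2 ratio of RR16 exceeded that of EIN3 by 1.24, that of GID1B by 1.17, that of GID1A by 0.95 and that of GID1C by 0.79. A shift that is common to all genes, such as centring, leaves these gaps as they are. A trend with signal does not, and the median log2 ratio was 0.11 in the dimmest group and -0.10 in the brightest. RR16 and EIN3 were closer with loess, at 0.63 and -0.41, and with quantile normalization, at 0.63 and -0.46.

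**Figure D2:**
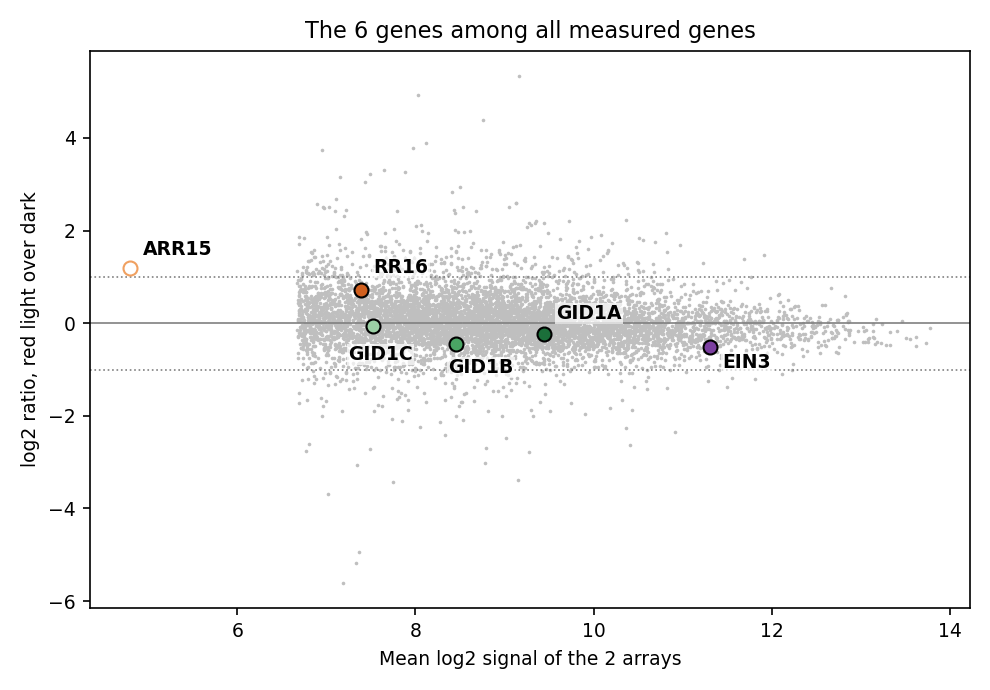
Red light over dark, as log2 ratio, against the mean log2 signal of the 2 arrays, with each measured gene as a grey point and the 6 genes marked. Dotted lines are at 2-fold; the open circle is ARR15, which did not count as measured and lies at a lower signal than every grey point. The receptors, EIN3 and RR16 all lie between the 2-fold lines.

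RR16 stayed above 0 under each of the 5 other scalings, as did ARR15 in those that gave it a value, and EIN3 and GID1B stayed below 0. A pseudocount added to both signals cannot change a sign, and median centring left the ratios nearly unchanged. Only loess, quantile normalization and hybridization control centring could thus have changed a sign. GID1A and GID1C were below 0 except with centring on the hybridization controls. Of those 18 controls, which are added to the hybridization mix and not to the seedlings, 17 were lower on the red light array, with a median log2 ratio of -0.30. Centring on them raises each ratio by 0.30, gives 705 higher and 91 lower genes in place of 351 and 178, and so moves the share of called genes that are higher to 88.6%, against 66.4% as deposited.

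**Figure D3:**
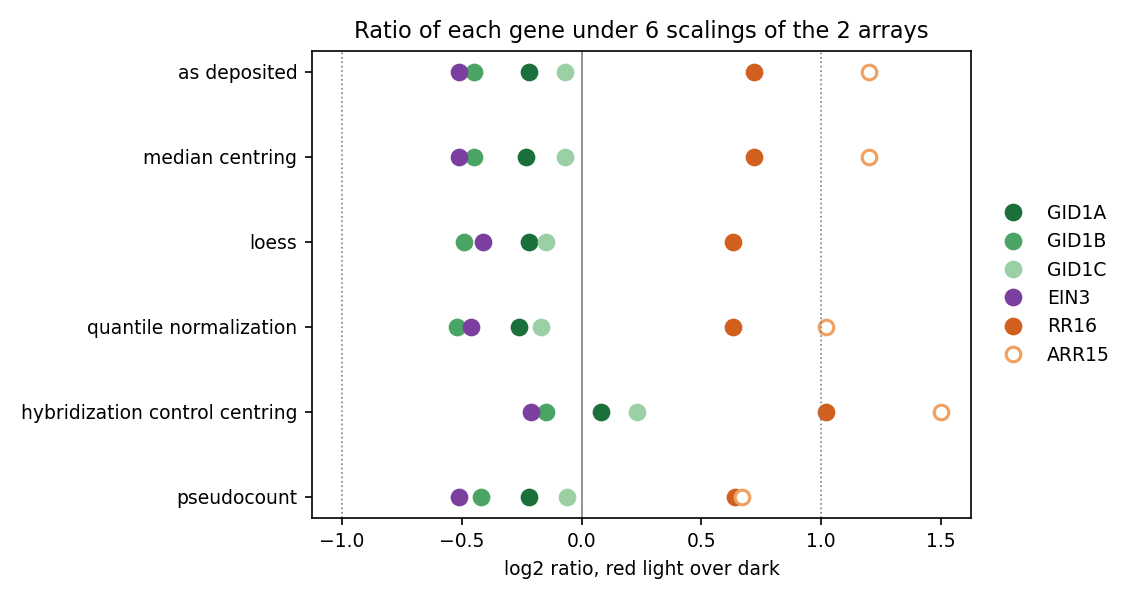
Red light over dark, as log2 ratio, for each of the 6 genes (x axis) with the signals as deposited and under 5 other scalings (rows). Dotted lines are at 2-fold; open circles are ARR15, which has no loess value because it is dimmer than the genes in the loess fit. GID1A and GID1C change side of 0 in the row of hybridization control centring, and RR16 touches 2-fold there.

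Other genes of the gibberellin pathway were few on the array as annotated here. Of 35 genes on the gibberellin list, 6 had a probe set naming them alone and 5 were measured. These 5 include the receptors described above. All 5 had a log2 ratio below 0 as deposited, from -0.45 to -0.07. The median of -0.22 is the value of GID1A, and with centring on the hybridization controls it was 0.08. None of the 5 was 2-fold apart. Outside the receptors, SLY1, the F-box protein that targets DELLA repressors, gave signals of 1458.6 under red light and 1560.3 in the dark, a log2 ratio of -0.10. SPY, a sugar-transferring enzyme that restrains gibberellin responses, gave signals of 346.8 under red light and 420.1 in the dark, a log2 ratio of -0.28. SLY2, the relative of SLY1, did not count as measured, with signals of 66.0 under red light and 46.1 in the dark. The 5 DELLA repressors, 14 synthesis genes, 7 inactivation genes and 3 target genes on the list had no such probe set and are not analysed here.

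On the ethylene list of 25 genes, EIN3 and RTE1 had a probe set naming them alone, and both were measured. RTE1, a membrane protein that works with the ethylene receptor ETR1, gave signals of 227.1 under red light and 364.1 in the dark. That is 1.60-fold lower after red light, a log2 ratio of -0.68, and 6.61% of measured genes had a lower ratio. EIN3 and RTE1 were thus both lower on the red light array, under 2-fold, and their median of -0.60 became -0.30 with centring on the hybridization controls. ETP2, an F-box protein that targets the ethylene signalling protein EIN2, is not on the list and was found afterwards by a search of gene names. Its signals were 280.3 under red light and 283.6 in the dark, a log2 ratio of -0.02. The 5 ethylene receptors, the kinase gene CTR1 and the F-box genes EBF1 and EBF2, whose products degrade EIN3, are not analysed here.

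On the cytokinin list of 36 genes, 3 had a probe set naming them alone and RR16 was the measured one. The third, the type-B regulator RR18, gave signals of 0.4 under red light and 0.8 in the dark, far below the highest background, so no fold is given. The same search of gene names found 3 further response regulators, RR19, RR22 and RR23. Their signals after red light were 9.2, 11.6 and 1.7, each under the highest background of that array. In the dark RR22 had a signal of 21.1, above the highest background there, while RR19 and RR23 had 8.1 and 1.0. Of the 6 response regulators found, RR16 was the one that counted as measured.

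The measured genes most like each of the 5 measured genes were found by the distance between their pairs of log2 signals, over 2 arrays. AT3G27340 and NET4B were nearest to GID1A, at distances of 0.007 and 0.008. CuAO1, a copper amine oxidase gene, and JKD, which encodes a zinc finger factor of root patterning, were nearest to GID1B, at 0.008 and 0.025. AT1G68400 and AT3G24030 were nearest to GID1C, at 0.021 and 0.025. AT3G56880 and AT4G14270 were nearest to EIN3, at 0.032 and 0.059. Phox3 and AT3G16220 were nearest to RR16, at 0.019 and 0.028, with log2 ratios of 0.71 and 0.75. With 2 arrays, a small distance says only that a gene had similar signals on both.

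After trimming 2% of probe sets at each end, both deposited arrays had a mean of 500, so their common level follows from scaling. The median signal was 203 under red light and 191 in darkness. Genes known from etiolated and germinated seedlings were bright on both arrays, namely PYK10, ICL and PORB. ICL, of the glyoxylate cycle, was 5.09-fold lower after red light, and PORB, a protochlorophyllide oxidoreductase, 1.78-fold lower. None of 3 markers of root hairs and seeds (EXPA7, EXPA18 and PAP85) counted as measured. Root hairs are part of whole seedlings, so the root hair genes do not show which tissue was sampled. The signals of the root hair genes were 8.8 under red light and 26.4 in the dark for EXPA7, and 13.5 under red light and 52.3 in the dark for EXPA18. Both red light signals lie under the highest background of that array, so no fold is given. In the dark EXPA7 was at 2.3 times and EXPA18 at 4.55 times the highest background. The seed gene PAP85 gave 82.8 under red light and 112.0 in the dark. That is 4.04 times the highest background under red light and 9.74 times in the dark, so PAP85 was above background though not counted as measured. The ratio of 3' to 5' signal over 6 control pairs ran from 1.60 to 40.1 after red light and from 2.05 to 35.8 in the dark. Signal was thus stronger at the 3' end for every pair, most of all for 1 pair of actin. The labels give 20 ng of total RNA for each sample. The part of RNA quality and of these differences between arrays in the ratios of the 6 genes was not tested. Array, pool and treatment cannot be told apart.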

How the data were processed

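The authors deposited 1 linear intensity per probe set and array. Per the submitters' processing notes it comes from MAS5 (version 5), and no source used here gives its settings or a genome build. After trimming 2% of probe sets at each end, both arrays had a mean of 500. Probe sets were named from the platform annotation and updated through a gene table of TAIR10.1, used for names only. Of 22810 probe sets 64 were controls, 13513 named 1 gene, 503 named several and 8730 were unlisted. Log2 ratios were red light minus dark, averaged over the probe sets of a gene, after a filter at the 40th percentile of mean log2 signal. With 1 array per group no test was run.

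The 6 genes, the pathway and marker lists and the alternatives were chosen with earlier results of these data known. The text names all 6 genes, up to 6 measured genes of each list by size of ratio, listed genes that were not measured, and the 2 nearest genes of each measured one. RR19, RR22, RR23 and ETP2 were named after their values had been seen. Of 5 markers of seedling tissue 3 had a probe set naming them alone, all with ratios below 0 and a median of -0.83. Of 6 markers of root hairs, seeds and flowers 3 had one, none of them measured. Loess used a span of 0.3. The steps were tested on simulated data with larger changes than those of the 6 genes and less noise than the real arrays. That test does not cover ratios of the size reported here. Python 3.11.15, numpy 2.4.6, pandas 2.3.3 and statsmodels 0.14.6 were used.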

Additional observations from a re-analysis of the deposited data

How the results depend on the processing

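No paired analysis was possible because red light and dark have 1 array each. Of 11 alternatives, 9 change the log2 ratios or the genes that count as measured and 2 change the fold threshold. With centring on the hybridization controls the log2 ratios were 0.08 for GID1A, -0.15 for GID1B, 0.23 for GID1C, -0.21 for EIN3, 1.02 for RR16 and 1.5 for ARR15, and the list medians were 0.08 for gibberellin, -0.30 for ethylene and 1.02 for cytokinin. Of these medians, the cytokinin one is RR16 alone, the gibberellin one is the value of GID1A and the ethylene one comes from EIN3 and RTE1. They are thus no further evidence beside the ratios of the genes. With the pseudocount ARR15 had 0.67. Over the other alternatives that gave a value, each of these ratios and medians moved by less than the median difference of 0.27 between probe sets of the same gene. For the 6 genes, changes of filter, leaving out cross-hybridizing probe sets and taking the brightest probe set could not move the ratio. Each has 1 probe set without that suffix, and its ratio was kept whatever the filter. Median centring left the ratios nearly unchanged. Among those of the 6 genes that counted as measured, which leaves out ARR15 except with no filter, the number at least 2-fold apart was 1 in place of 0 with hybridization control centring (RR16), with no filter on dim probe sets (ARR15) and at 1.5-fold (RR16). Higher and lower genes numbered 705 and 91 with hybridization control centring, 1822 and 1278 with no filter, 172 and 89 with the filter at the 60th percentile, 925 and 652 at 1.5-fold, and 93 and 55 at 3-fold, against 351 and 178. The filter at the 60th percentile drops RR16, GID1C and RTE1, so the cytokinin list has no value there and the ethylene median, -0.51, is that of EIN3 alone. ARR15 has no loess value. The signal of ARR15 near background limits its ratio, and the lack of a repeat array limits all of them.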
